A study of Mus musculus with 30 samples.

Results

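The genes of the carnitine shuttle and of carnitine supply were followed in the liver of mice given PFOS (perfluorooctane sulfonate, a fluorinated surfactant that persists in tissue). They were 8 genes: Slc22a5, Aldh9a1, Bbox1, Cpt1a, Slc25a20, Cpt2, Crat, and Crot. Every Affymetrix probe set that the array annotation gives to 1 of these genes and to no other gene was taken, which gave 18 of 45037 probe sets. Of these 18, 16 passed a filter on low values (5 or more of the 30 arrays had to exceed 5.65, the median value of the table), and they included at least 1 probe set for each of the 8 genes, of 12156 named genes in all. The study had 6 groups of 5 male mice, aged 6 to 9 months, with 1 liver array per mouse. WT mice (129S1/SvlmJ) and PPARα-null mice (129S4/SvJae-Pparatm1Gonz/J, here Null) received 0, 3, or 10 mg/kg PFOS, as the potassium salt in 0.5% Tween 20, by gavage on 7 consecutive days, so that all 6 groups received the vehicle. RNA came from the left lobe of the liver. The Null mice lack the receptor in all tissues, and the labels name a different substrain for each genotype, so that a difference between genotypes cannot be told apart from one of substrain.

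Carnitine carries fatty acids into mitochondria. The cell takes it up through Slc22a5 (OCTN2) or makes it from trimethyllysine in a pathway whose later steps use Aldh9a1 and, in the final step, Bbox1. On the outer mitochondrial membrane Cpt1a joins a long acyl chain to carnitine, Slc25a20 exchanges the acylcarnitine for free carnitine across the inner membrane, and Cpt2 returns the chain to coenzyme A for β-oxidation. Crat transfers acetyl and other short chains between coenzyme A and carnitine, and Crot transfers the medium chains that leave peroxisomes. Several of these genes are known targets of PPARα, the receptor that fibrates activate in liver and that binds DNA with RXR at repeats of a short hexamer.

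The promoters of 3 of the genes are shown: Slc22a5 and Slc25a20 because both rose in both genotypes, and Aldh9a1 because its response differed between them. RefSeq (GRCm38.p6) gave a window for 7 of the 8 genes, and for Crat there was none in the table used. Each sequence below is the 250 bases before the start of the transcript, read 5′ to 3′ on the strand of the gene, and capitals mark the hexamer AGGNCA on either strand. The windows are chr11:53891704-53891953 (minus strand) for Slc22a5, chr9:108661886-108662135 (plus strand) for Slc25a20, and chr1:167349741-167349990 (plus strand) for Aldh9a1.
Slc22a5: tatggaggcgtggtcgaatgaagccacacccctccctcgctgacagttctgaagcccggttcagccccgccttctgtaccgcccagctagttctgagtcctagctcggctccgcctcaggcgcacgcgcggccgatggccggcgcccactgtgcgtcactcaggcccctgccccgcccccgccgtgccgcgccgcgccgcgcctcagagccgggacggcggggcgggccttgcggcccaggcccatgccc
Slc25a20: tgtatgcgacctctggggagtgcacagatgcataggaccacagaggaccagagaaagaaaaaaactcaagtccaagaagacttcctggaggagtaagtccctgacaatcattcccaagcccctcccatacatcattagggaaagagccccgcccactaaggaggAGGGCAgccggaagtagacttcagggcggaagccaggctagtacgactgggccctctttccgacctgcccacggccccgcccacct
Aldh9a1: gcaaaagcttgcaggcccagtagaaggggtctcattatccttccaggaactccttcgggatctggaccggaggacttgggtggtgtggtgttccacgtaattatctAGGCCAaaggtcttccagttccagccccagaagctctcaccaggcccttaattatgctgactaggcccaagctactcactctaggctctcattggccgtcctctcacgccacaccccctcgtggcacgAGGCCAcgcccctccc
The hexamer stood in 6 of the 7 windows (all but that of Slc22a5) and in 51.3% of 32851 windows of the same length in the table. A pair of hexamers on 1 strand with 1 base between them, the arrangement PPARα and RXR bind, stood in 0 of the 7 windows and in 0.338% of all windows. These letters were searched in these windows alone, and sites elsewhere in the genes were not searched.

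Deposited values are log2 values after Robust Multichip Average (RMA) normalization, and a change is a difference of group means on that scale. Calls were made where limma gave a p under 0.05 after Benjamini-Hochberg adjustment across every probe set kept. Where a gene had several kept probe sets, it was read by the one whose p was smallest in any of the 4 comparisons of a dose with its control. Array medians lay between 5.60 and 5.70. The 8 hepatocyte markers averaged 12.14 to 12.23 in the WT controls and 11.81 to 11.97 at WT 10 mg/kg. There, 4 of the 8 were called lower (median change -0.25), beside 5.83% of all genes, and the carnitine genes called were higher. Of these 8 markers, 3 were called higher in Null than in WT mice at 10 mg/kg, beside 1708 of all 12156 genes called in either direction. The difference in response to 10 mg/kg was called more positive in Null mice for 2 of the 8, beside 442 of all 12156 genes called in either direction. The average of the 3 measured cholangiocyte markers stayed between 5.42 and 5.84 over the arrays, near the filter level. Of 5 stellate cell markers 1 was lower at WT 10 mg/kg (averages 8.50 to 9.34 in controls and 8.28 to 8.51 dosed). At Null 10 mg/kg 2 of 9 Kupffer cell markers were lower (median change -0.32), beside 1122 of all 12156 genes called in either direction. There, 2 of 6 endothelial markers were higher, beside 4.15% of all genes, although the median change of the 6 was -0.10. The part of these markers in the results was not tested. In bulk liver, fewer cells of a type and less RNA per cell cannot be told apart.

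The control arrays labeled WT 0 mg/kg replicates 4 and 5 stood apart from replicates 1 to 3. Of 22 probe sets of other genes that separated the remaining WT arrays from the Null arrays, 22 lay on the Null side in both of these arrays, against 0 to 2 in the remaining WT arrays. Ppara, the gene disrupted in Null mice, read 8.45 and 8.52 in them, against 9.91 to 10.42 in replicates 1 to 3 and 8.56 to 9.55 over the Null arrays. Cyp2b10, a known target of the receptor CAR, read 13.04 and 12.99 in them, against 8.11 to 8.43 in replicates 1 to 3 and 12.02 to 13.37 at Null 10 mg/kg. For 7 of the 8 carnitine genes both arrays lay within the range of Null 10 mg/kg (for Cpt1a, 1 of the 2 did). Values of the carnitine genes and of the lists around them that use the WT controls are therefore given with all 5 arrays and without these 2, called below without the 2 arrays. The marker counts use all arrays. Arrays labeled biological replicates were treated as separate mice, and comparisons of 3 and of 10 mg/kg with 0 mg/kg share their control arrays.

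In WT mice at 10 mg/kg, 6 of the 8 carnitine genes were higher than at 0 mg/kg: Slc22a5, Aldh9a1, Slc25a20, Cpt2, Crat, and Crot. Their changes ran from 0.48 (Crot) to 1.67 (Crat), and none of the 8 was called lower. Of all 12156 genes, 7.63% were called higher in this comparison. Without the 2 arrays the count was 5, with Crot no longer called, beside 13.8% of all genes. The median change of the 8 genes was 0.81, against 0.00 over all genes, and 0.66 without the 2 arrays. At 3 mg/kg, 2 genes were called higher (Aldh9a1 and Slc25a20), beside 0.239% of all genes, with a median of 0.44 over the 8 (0.36 without the 2 arrays). Without the 2 arrays 5 were called (Slc22a5, Cpt2, and Crat in addition), beside 0.683% of all genes. From 3 to 10 mg/kg, 2 genes rose further (Slc22a5 and Aldh9a1), beside 3.65% of all genes called higher. Without the 2 arrays 5 were called (Slc25a20, Cpt2, and Crat in addition), beside 7.15% of all genes.

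In Null mice, 3 of the 8 genes were higher at 3 mg/kg, and the same 3 were higher at 10 mg/kg: Slc22a5, Slc25a20, and Crat. Of all genes, 2.05% were called higher at 3 mg/kg and 4.15% at 10 mg/kg. The 8 genes had a median change of 0.35 after 3 mg/kg and of 0.29 after 10 mg/kg. Between 3 and 10 mg/kg limma called 0 of the 8 genes and 0% of all genes higher. At an unadjusted p under 0.05 stood 2 of the 8 (Slc22a5 higher and Crot lower), beside 1177 of all 12156 genes. The methods' t-test called 0 of the 8. In the plot of values by array, the dosed arrays of Slc22a5 and Slc25a20 lie above their controls in both genotypes, and Bbox1 and Cpt1a stay level.

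**Figure D1:**
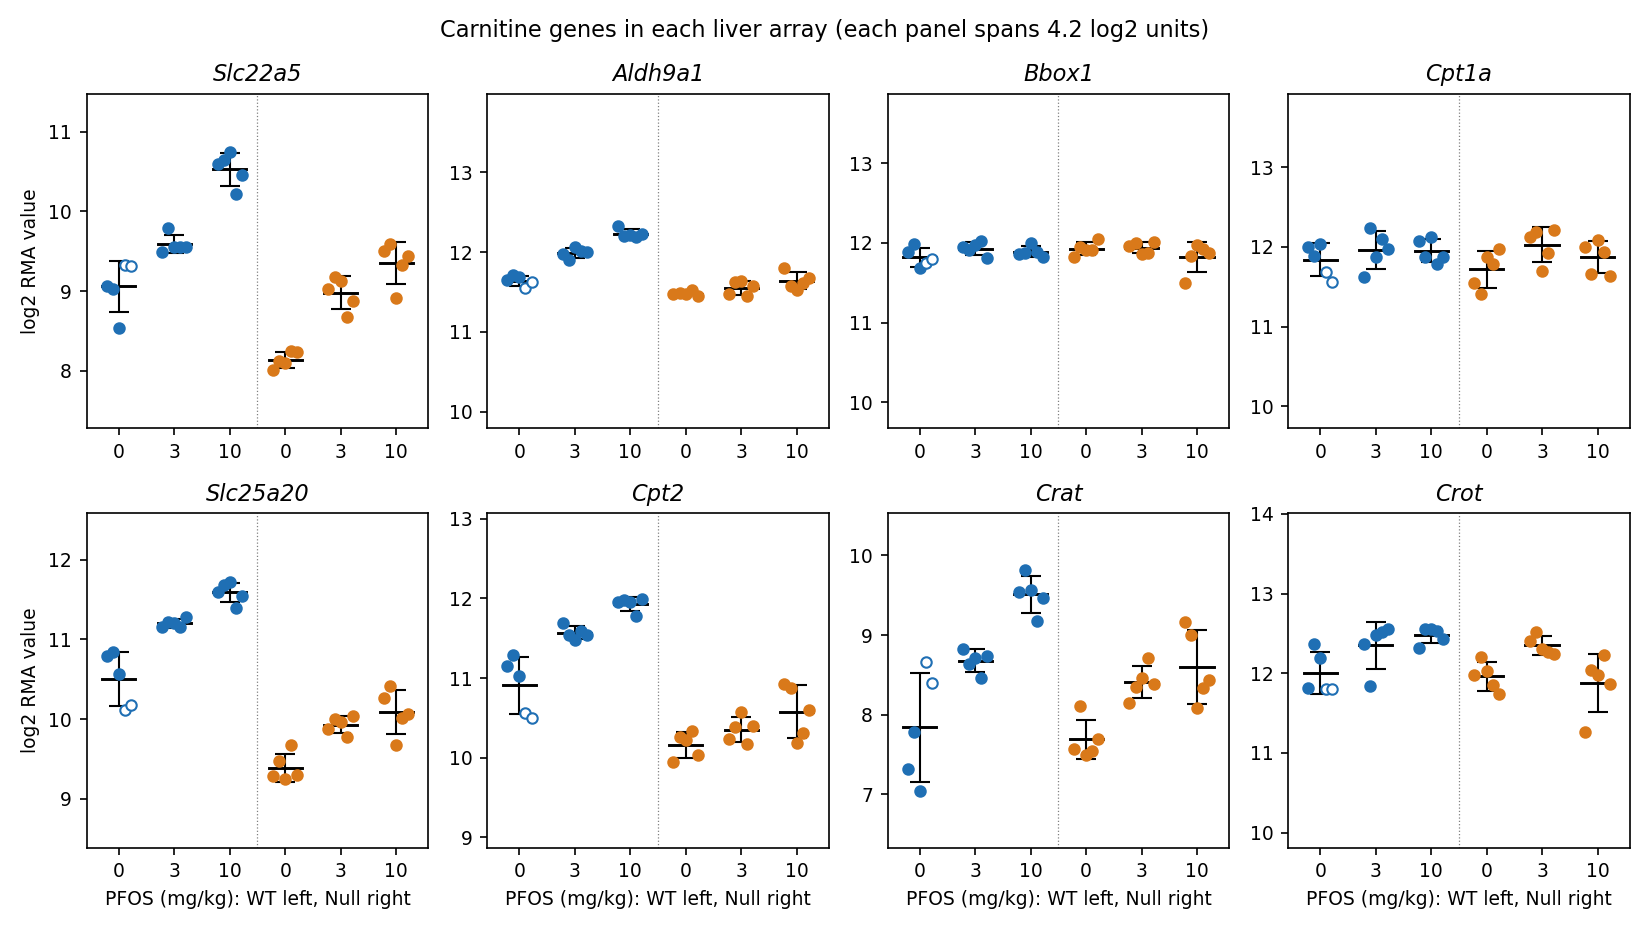
Log2 RMA value of the 8 carnitine genes (vertical axis, each panel spanning the same width) in each of 30 liver arrays, by PFOS dose in mg/kg (horizontal axis, WT in blue on the left and Null in orange on the right), with the group mean and SD in black (n = 5) and the control arrays WT 0 mg/kg replicates 4 and 5 as open circles. The WT 10 mg/kg arrays of Slc22a5 (10.22 to 10.75) lie above every other array, and the open circles lie below replicates 1 to 3 for Slc25a20 and Cpt2 and above them for Crat.

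Carnitine uptake was read by Slc22a5, whose product is the main sodium-dependent carnitine transporter of the plasma membrane. In WT mice it read 9.06, 9.03, 8.54, 9.33, and 9.32 at 0 mg/kg, 9.49, 9.79, 9.55, 9.56, and 9.56 at 3 mg/kg, and 10.60, 10.65, 10.75, 10.22, and 10.46 at 10 mg/kg. The 3 WT groups did not overlap, and replicate 3 was the lowest control. The change at 10 mg/kg was 1.48 ± 0.135 (SE, 2.79-fold, adjusted p = 8.61e-06, limma), and 1.66 without the 2 arrays (adjusted p = 2.66e-06). At 3 mg/kg it was 0.53 ± 0.135 and not called (adjusted p = 0.258), whereas without the 2 arrays it was 0.71 and called (adjusted p = 0.0262). From 3 to 10 mg/kg it rose by 0.94 ± 0.135 (adjusted p = 0.00187).

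Slc22a5 also rose in Null mice. It read 8.01, 8.12, 8.10, 8.25, and 8.24 at 0 mg/kg, 9.03, 9.18, 9.13, 8.68, and 8.88 at 3 mg/kg, and 9.50, 9.59, 8.92, 9.33, and 9.44 at 10 mg/kg. Both dosed groups lay above all Null controls and overlapped each other. After 3 mg/kg the change was 0.83 ± 0.120 (adjusted p = 0.00226), and after 10 mg/kg it was 1.21 ± 0.120 (2.31-fold, adjusted p = 8.60e-05). The response of Null mice minus that of WT mice was 0.30 at 3 mg/kg (95% confidence interval -0.08 to 0.68, adjusted p = 0.515), or 0.12 without the 2 arrays (-0.26 to 0.50, adjusted p = 0.839). It was -0.27 at 10 mg/kg (-0.65 to 0.11, adjusted p = 0.512), and -0.45 at 10 mg/kg without the 2 arrays (-0.83 to -0.07, adjusted p = 0.174). A second probe set of Slc22a5 gave changes of 1.60 in WT (1.74 without the 2 arrays) and 1.15 in Null mice at 10 mg/kg, all called.

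Carnitine synthesis was read by Aldh9a1, the dehydrogenase that makes γ-butyrobetaine, and Bbox1, which hydroxylates γ-butyrobetaine to carnitine. Aldh9a1 read 11.65, 11.71, 11.69, 11.55, and 11.63 in the WT controls, 11.97, 11.90, 12.07, 12.01, and 12.00 in WT mice given 3 mg/kg, and 12.33, 12.20, 12.22, 12.19, and 12.23 in those given 10 mg/kg. The 3 groups were narrow and separate. After 3 mg/kg the change was 0.35 ± 0.055 (1.27-fold, adjusted p = 0.0128), and after 10 mg/kg it was 0.59 ± 0.055 (1.5-fold, adjusted p = 1.17e-05), or 0.31 and 0.55 without the 2 arrays, both still called. The call at 3 mg/kg was lost without WT 0 mg/kg replicate 4 alone (adjusted p = 0.0539) or WT 3 mg/kg replicate 3 alone (adjusted p = 0.066). The rise from 3 to 10 mg/kg was 0.24 ± 0.055 (adjusted p = 0.0247) and lost its call without WT 3 mg/kg replicate 1 or 2 or WT 10 mg/kg replicate 1 or 5 (adjusted p = 0.0539 to 0.0729). The second probe set of Aldh9a1 gave 0.14 there and was not called (adjusted p = 0.243).

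In Null mice Aldh9a1 read 11.48, 11.49, 11.48, 11.52, and 11.45 at 0 mg/kg and 11.80, 11.58, 11.52, 11.61, and 11.68 at 10 mg/kg. The lowest dosed array stood at the level of the highest control (both 11.52), and the difference of 0.15 ± 0.066 was not called (adjusted p = 0.176), nor was that of 0.07 at 3 mg/kg (adjusted p = 0.666). Aldh9a1 was the gene among the 8 whose response to 10 mg/kg differed between genotypes with all arrays: Null minus WT was -0.43 ± 0.078 (adjusted p = 0.00271, limma over all 30 arrays), beside 2.95% of all genes called more negative in Null mice. It was -0.40 without the 2 arrays (adjusted p = 0.0107). The second probe set gave -0.48 (adjusted p = 0.0086), or -0.43 without the 2 arrays (adjusted p = 0.0235). It was not called at WT 3 mg/kg (0.29, adjusted p = 0.202, and 0.24, adjusted p = 0.241, without the 2 arrays), and both probe sets can bind several transcripts of the gene.

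Bbox1 was called in none of the 11 comparisons. Its group means lay between 11.82 and 11.94, a span of 0.12, and all 6 groups overlapped their neighbors in the order of means. The difference from 0 mg/kg at 10 mg/kg was 0.07 in WT mice (95% confidence interval -0.07 to 0.21, adjusted p = 0.54), or 0.04 without the 2 arrays (-0.13 to 0.21), and -0.10 in Null mice (-0.28 to 0.08, adjusted p = 0.515). The interval for WT mice ends well below the changes of Slc22a5 and Aldh9a1 there. A second probe set of Bbox1 gave 0.10 (0.04 without the 2 arrays) and -0.12.

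The first step into mitochondria was read by Cpt1a, the liver form of carnitine palmitoyltransferase 1 and the step that malonyl-CoA inhibits. It was also called in none of the 11 comparisons. The WT arrays ran from 11.56 to 12.04 at 0 mg/kg, from 11.62 to 12.24 at 3 mg/kg, and from 11.79 to 12.13 at 10 mg/kg, and the Null arrays from 11.41 to 11.97, 11.70 to 12.21, and 11.64 to 12.09. All groups overlapped. The largest difference from a control was 0.31 in Null mice at 3 mg/kg (95% confidence interval 0.04 to 0.58, adjusted p = 0.206). At WT 10 mg/kg it was 0.11 (-0.14 to 0.36, adjusted p = 0.585), and -0.03 without the 2 arrays (-0.29 to 0.23). A second kept probe set gave 0.27 there (adjusted p = 0.178), or 0.22 without the 2 arrays (adjusted p = 0.306), and the remaining one did not pass the filter on low values.

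Slc25a20, the carnitine-acylcarnitine carrier of the inner membrane, acts after Cpt1a and was above control at both doses in both genotypes. In WT mice it read 10.79, 10.84, 10.57, 10.12, and 10.18 at 0 mg/kg, 11.16, 11.22, 11.21, 11.15, and 11.28 at 3 mg/kg, and 11.59, 11.68, 11.72, 11.40, and 11.55 at 10 mg/kg. The groups did not overlap, and the 2 lowest controls were replicates 4 and 5. After 3 mg/kg the change was 0.71 ± 0.123 (adjusted p = 0.0273), and after 10 mg/kg it was 1.09 ± 0.123 (2.13-fold, adjusted p = 5.41e-05). The changes were smaller without the 2 arrays, 0.47 (adjusted p = 0.0206) and 0.86 (adjusted p = 1.88e-05). The call at 3 mg/kg was lost without any 1 of WT 0 mg/kg replicates 3, 4, and 5 or of the WT 3 mg/kg arrays (adjusted p = 0.052 to 0.0926).

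In Null mice Slc25a20 read 9.28, 9.47, 9.25, 9.67, and 9.30 at 0 mg/kg, 9.88, 10.00, 9.97, 9.77, and 10.04 at 3 mg/kg, and 10.27, 10.41, 9.68, 10.01, and 10.07 at 10 mg/kg. Each dosed array lay above every Null control, and even the highest Null array (10.41) lay below the lowest of WT 0 mg/kg replicates 1 to 3 (10.57). After 3 mg/kg the change was 0.54 ± 0.120 (adjusted p = 0.0214), and after 10 mg/kg it was 0.69 ± 0.120 (1.62-fold, adjusted p = 0.0036). The call at 3 mg/kg was lost without Null 0 mg/kg replicate 3 or 5 or Null 3 mg/kg replicate 2 or 5 (adjusted p = 0.0508 to 0.0622). The response of Null minus WT mice at 10 mg/kg was -0.39 (95% confidence interval -0.76 to -0.03, adjusted p = 0.257), and -0.16 without the 2 arrays (-0.48 to 0.16). The second probe set gave 1.16 in WT (0.89 without the 2 arrays) and 0.68 in Null mice at 10 mg/kg, all called, but at Null 3 mg/kg it gave 0.50 and was not called (adjusted p = 0.0599).

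Cpt2, the inner membrane transferase that completes the shuttle, followed Slc25a20 in WT mice. It read 11.15, 11.29, 11.03, 10.56, and 10.50 in the WT controls, 11.69, 11.54, 11.48, 11.59, and 11.54 in WT mice given 3 mg/kg, and 11.95, 11.98, 11.95, 11.78, and 11.99 in those given 10 mg/kg. The 3 groups did not overlap, and replicates 4 and 5 were the lowest controls. The change at 10 mg/kg was 1.02 ± 0.128 (2.03-fold, adjusted p = 0.000151), or 0.77 without the 2 arrays (adjusted p = 2.66e-05). At 3 mg/kg it was 0.66 ± 0.128 and just missed the threshold (adjusted p = 0.0542), while without the 2 arrays it was 0.41 and passed (adjusted p = 0.0304).

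In Null mice Cpt2 read 9.95, 10.26, 10.22, 10.33, and 10.04 at 0 mg/kg and 10.92, 10.88, 10.19, 10.31, and 10.60 at 10 mg/kg. At 10 mg/kg 3 arrays lay above all controls and replicates 3 and 4 lay among them. The difference of 0.42 ± 0.135 was not called (adjusted p = 0.0678), although it was without Null 10 mg/kg replicate 3 (0.52, adjusted p = 0.0202) or replicate 4 (0.49, adjusted p = 0.0433). The response of Null minus WT mice was -0.60 at 10 mg/kg (95% confidence interval -0.99 to -0.21, adjusted p = 0.0844), and -0.35 without the 2 arrays (-0.70 to 0.00, adjusted p = 0.265). A second Cpt2 probe set did not pass the filter on low values.

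Crat, carnitine acetyltransferase, had the widest spread among the WT controls. It read 7.32, 7.78, 7.04, 8.66, and 8.40 in the WT controls, 8.83, 8.64, 8.71, 8.46, and 8.74 in WT mice given 3 mg/kg, and 9.54, 9.82, 9.56, 9.17, and 9.47 in those given 10 mg/kg. The high controls were replicates 4 and 5, which reached the 3 mg/kg arrays, while the 10 mg/kg arrays lay above all others. The change at 10 mg/kg was 1.67 ± 0.240 (3.18-fold, adjusted p = 0.000568), or 2.13 ± 0.156 without the 2 arrays (adjusted p = 1.01e-06). At 3 mg/kg it was 0.83 ± 0.240 and not called (adjusted p = 0.445), and without the 2 arrays it was 1.29 ± 0.156 and called (adjusted p = 0.000743).

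In Null mice Crat read 7.57, 8.11, 7.49, 7.55, and 7.69 at 0 mg/kg, 8.15, 8.35, 8.46, 8.71, and 8.39 at 3 mg/kg, and 9.16, 9.00, 8.08, 8.33, and 8.43 at 10 mg/kg. At 10 mg/kg replicates 1 and 2 were high and replicate 3 fell within the controls. After 3 mg/kg the change was 0.73 ± 0.183 (adjusted p = 0.0368), and after 10 mg/kg it was 0.91 ± 0.183 (1.88-fold, adjusted p = 0.00836). The call at 3 mg/kg was lost without any 1 of Null 0 mg/kg replicates 1, 3, 4, and 5 or of the Null 3 mg/kg arrays (adjusted p = 0.0503 to 0.0941). The response of Null minus WT mice at 10 mg/kg was -0.76 ± 0.318 (adjusted p = 0.218) and was not called with all arrays, but without the 2 arrays it was -1.22 ± 0.262 and was called (adjusted p = 0.0116), beside 3.62% of all genes.

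The 3 probe sets of Crat disagreed. A second gave smaller changes that were called, 0.53 in WT mice (adjusted p = 0.00777, and 0.62 without the 2 arrays) and 0.44 in Null mice (adjusted p = 0.0138) at 10 mg/kg. The one with the highest mean of the 3 gave 0.24 in WT mice (adjusted p = 0.134, and 0.31 without the 2 arrays) and 0.35 in Null mice (adjusted p = 0.075), neither called. At Null 3 mg/kg the call of Crat was not shared by the other two probe sets (0.26 and 0.10). For the difference in response between genotypes at 10 mg/kg the other two gave -0.09 and 0.11 (-0.18 and 0.04 without the 2 arrays), so that the size of the Crat changes and the sign of this difference rest on the probe set read.

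Crot, the peroxisomal carnitine octanoyltransferase, changed least among the genes called at WT 10 mg/kg. It read 11.82, 12.37, 12.19, 11.80, and 11.80 in the WT controls and 12.32, 12.56, 12.56, 12.53, and 12.43 in WT mice given 10 mg/kg. Control replicate 2 lay among the dosed arrays. The change was 0.48 ± 0.138 (1.4-fold, adjusted p = 0.0371), or 0.35 and not called without the 2 arrays (adjusted p = 0.107). The call was also lost without any 1 of WT 0 mg/kg replicates 1, 4, and 5 or of the WT 10 mg/kg arrays (adjusted p = 0.0529 to 0.0954).

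In Null mice Crot read 11.98, 12.21, 12.03, 11.85, and 11.74 at 0 mg/kg, 12.41, 12.52, 12.30, 12.27, and 12.24 at 3 mg/kg, and 11.26, 12.04, 11.98, 12.23, and 11.87 at 10 mg/kg. The 3 mg/kg arrays lay above both other Null groups. No difference passed the test, with 0.38 ± 0.142 at 3 mg/kg (adjusted p = 0.153) and -0.47 ± 0.142 from 3 to 10 mg/kg (adjusted p = 0.541). A second Crot probe set read between 5.79 and 6.27 in all arrays, near the filter level, and was called in none of the 11 comparisons.

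**Figure D2:**
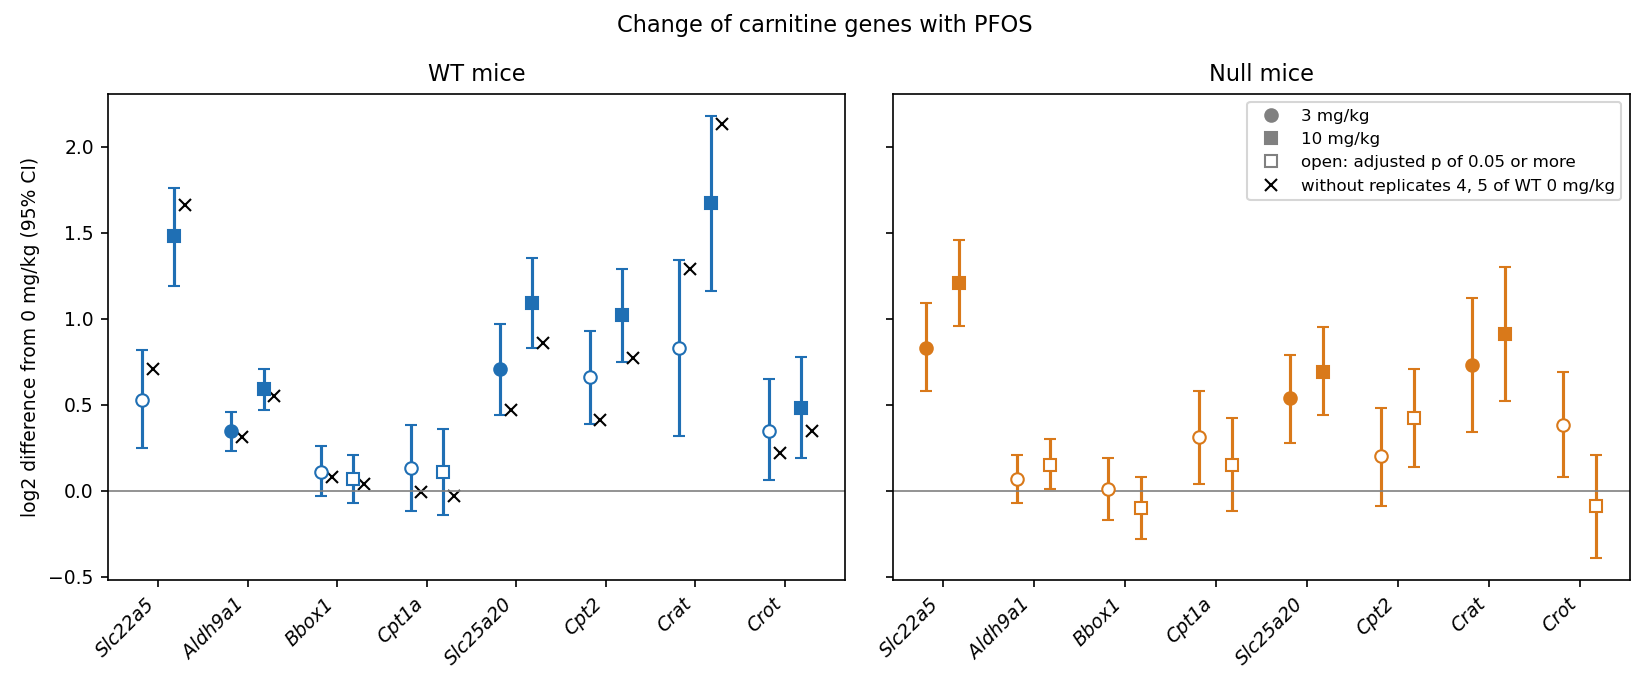
Log2 difference from 0 mg/kg (vertical axis, with 95% confidence intervals from limma) of the 8 carnitine genes (horizontal axis) at 3 mg/kg (circles) and 10 mg/kg (squares) in WT mice (left) and Null mice (right), with filled symbols for an adjusted p under 0.05 and crosses for WT values without control replicates 4 and 5. At 10 mg/kg 6 genes are filled in WT mice and 3 in Null mice, and the crosses lie higher for Slc22a5 and Crat and lower for Slc25a20 and Cpt2.

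Without PFOS, the shuttle genes downstream of Cpt1a and the carnitine transporter were lower in Null mice. At 0 mg/kg 3 of the 8 genes were called lower in Null than in WT mice, beside 0.65% of all genes: Slc25a20 by -1.11 ± 0.125 (2.15-fold, adjusted p = 3.22e-05), Slc22a5 by -0.91 ± 0.132 (1.88-fold, adjusted p = 0.000462), and Cpt2 by -0.75 ± 0.136 (1.68-fold, adjusted p = 0.00591). None of the 8 was called higher. Without the 2 arrays the same 3 genes were called, beside 1.16% of all genes, with -1.34 for Slc25a20, -0.73 for Slc22a5, and a 95% confidence interval of -1.26 to -0.74 for Cpt2. The median over the 8 genes was -0.16 (-0.23 without the 2 arrays), against 0.01 over all genes.

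At 3 mg/kg 4 genes were lower in Null mice, Aldh9a1 (-0.44) in addition to Slc25a20 (-1.27), Cpt2 (-1.21), and Slc22a5 (-0.61), beside 4.96% of all genes. The second probe set of Aldh9a1 gave -0.19 there and was not called (adjusted p = 0.089). At 10 mg/kg 6 were lower, beside 7.73% of all genes: Slc25a20 (-1.50 ± 0.125, 2.83-fold), Cpt2 (-1.35 ± 0.136, 2.54-fold), Slc22a5 (-1.18 ± 0.132, 2.27-fold), Crat (-0.91 ± 0.225), Crot (-0.60 ± 0.145), and Aldh9a1 (-0.59 ± 0.055). For each of these 6, which are the genes called, every Null array lay below every WT array at that dose. The share of all genes that separated in this way was not counted. The Crat value is that of the probe set read, and the one with the highest mean gave -0.25 (adjusted p = 0.137). Bbox1 (-0.06, 95% confidence interval -0.21 to 0.09) and Cpt1a (-0.08, -0.34 to 0.18) were not called at 10 mg/kg.

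The difference in response, which tests whether the gap between genotypes changed with dose, was called at 10 mg/kg for Aldh9a1 with all arrays, and for Aldh9a1 and Crat without the 2 arrays. The median over the 8 genes was -0.41 (-0.37 without the 2 arrays), against 0.01 over all genes, and 7 of the 8 values were below 0 (Cpt1a was 0.04, and 0.18 without the 2 arrays). At 3 mg/kg limma called 0 of the 8 genes, beside 0.971% of all genes called more negative in Null mice (0.173% without the 2 arrays, also with 0 of the 8). There, 2 of the 8 had an unadjusted p under 0.05, beside 2000 of all 12156 genes. For Aldh9a1 limma made no call at 3 mg/kg (-0.28, adjusted p = 0.0765, and -0.24, adjusted p = 0.195, without the 2 arrays). The same contrast with each gene's own spread, a test the study did not make between genotypes, called 1, Aldh9a1 (adjusted p = 0.0306).

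**Figure D3:**
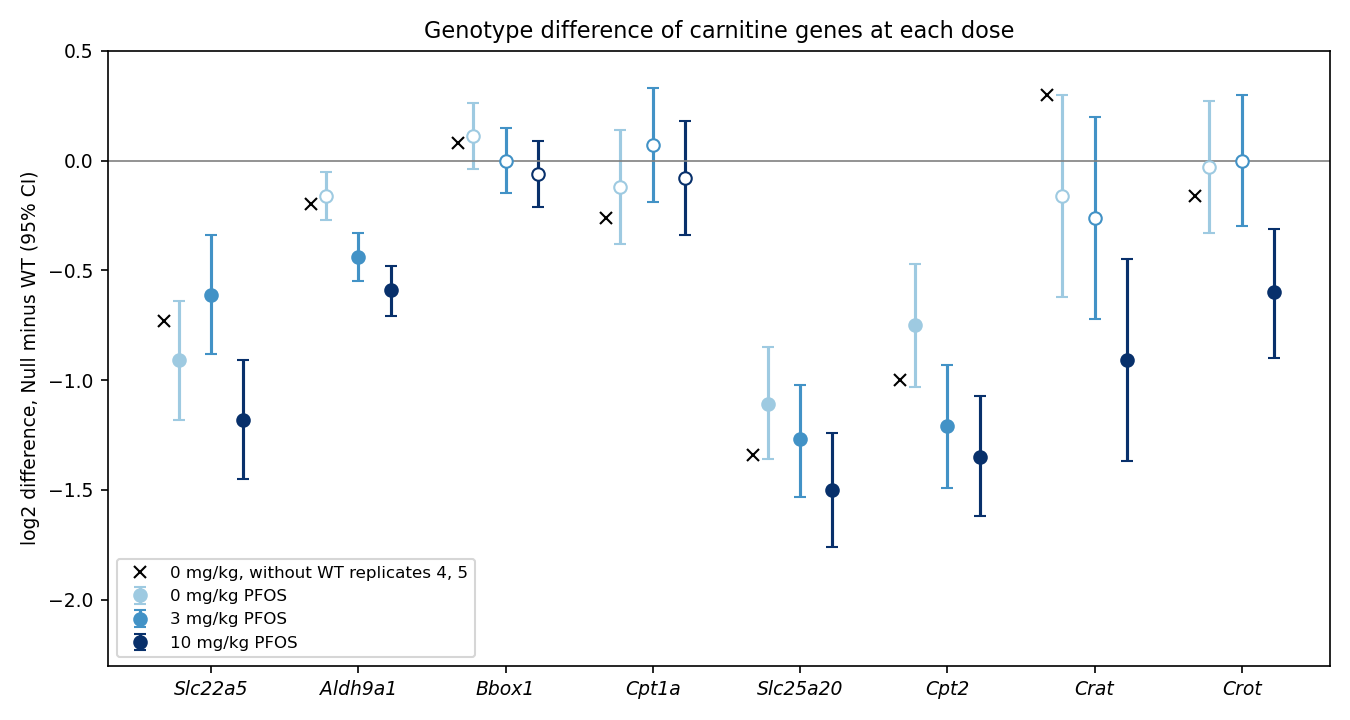
Log2 value of Null minus WT mice (vertical axis, with 95% confidence intervals from limma over 30 arrays) for the 8 carnitine genes (horizontal axis) at 0, 3, and 10 mg/kg PFOS (light to dark), with filled symbols for an adjusted p under 0.05 and crosses for 0 mg/kg without WT control replicates 4 and 5. Filled symbols number 3 at 0 mg/kg, 4 at 3 mg/kg, and 6 at 10 mg/kg, all below 0, while Bbox1 and Cpt1a stay near 0 at each dose.

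The order of the 6 groups by mean differed between genes. For Slc25a20 it ran from Null 0 (9.39) through Null 3 (9.93), Null 10 (10.09), WT 0 (10.50), and WT 3 (11.20) to WT 10 mg/kg (11.59), so that all Null groups stood below the WT controls. Of these neighbors, Null 3 and 10 mg/kg overlapped, as did Null 10 and WT 0 mg/kg. Cpt2 had the same order, with Null 0 and 3 mg/kg overlapping as well. With WT 0 mg/kg taken without the 2 arrays (10.73 for Slc25a20 and 11.16 for Cpt2), both orders held and Null 10 and WT 0 mg/kg did not overlap. For Slc22a5 the order was Null 0 (8.14), Null 3 (8.98), WT 0 (9.06), Null 10 (9.35), WT 3 (9.59), and WT 10 mg/kg (10.53). Neighbors overlapped from Null 3 through WT 3 mg/kg, while Null 0 and WT 10 mg/kg were each free of overlap with the next group. WT 0 mg/kg of Slc22a5 came below Null 3 mg/kg without the 2 arrays (8.88). For Crat the WT controls (7.84) stood second to Null 0 mg/kg (7.69), and WT 10 mg/kg (9.51) alone was free of overlap with its neighbor. The first 2 places turned round without the 2 arrays (WT 0 mg/kg at 7.38), and Null 0 and 3 mg/kg then did not overlap either.

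Genes whose 6 group means, each centered on 0, lay closest to those of a carnitine gene were found for the 4 that spanned at least 1 over the groups. For Slc22a5 they were Nceh1, Slc16a5, and Gstm4, with a root mean square difference of 0.119, 0.128, and 0.171. Slc25a20 lay closest to Eci2 (0.103), Ech1 (0.134), and Cpt2 (0.143), of which Eci2 and Ech1 are isomerases of unsaturated acyl-CoA. Cpt2 lay closest to Lgals4 (0.086), Tdrp (0.099), and Hsdl2 (0.100). Crat lay less close to any gene, with Pctp (0.189), Slc16a5 (0.209), and Gadd45b (0.220) nearest. Leaving out the 2 arrays changed 1 of the 3 genes for Slc22a5 (Nek2, 0.181, in place of Gstm4), none for Slc25a20, 1 for Cpt2 (Eci2, 0.103, in place of Hsdl2), and 2 for Crat (Elovl6 and Gstm3, both 0.205, in place of Slc16a5 and Gadd45b).

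The steps around the shuttle were read by 4 lists. Of 8 other carnitine genes 4 were measured (Cpt1b, Cpt1c, Slc22a21, and Slc6a14 had no kept probe set named for them alone). The paper lists Cpt1b as higher at WT 10 mg/kg, a change that was not read here. Of the 4 measured, 1 was called at WT 10 mg/kg: Slc16a9, a monocarboxylate transporter linked to carnitine efflux, at -0.32 ± 0.075 (adjusted p = 0.0149) and -0.36 without the 2 arrays. Of all genes, 5.83% were called lower there. Slc16a9 read 6.10 to 6.33 in the controls and 5.72 to 6.08 at 10 mg/kg, near the filter level. In Null mice limma called 0 of the 4 at 10 mg/kg, beside 1122 of all 12156 genes in either direction. At an unadjusted p under 0.05 stood 0 of the 4, beside 3229 of all genes, and the methods' t-test called 0 of the 4.

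Of 11 genes for activation of fatty acids and for malonyl-CoA, 9 were measured and 6 were higher at WT 10 mg/kg (7 without the 2 arrays), beside 7.63% of all genes (13.8%), with a median of 0.45 (0.53). They included Acsl3, an acyl-CoA synthetase (0.76, adjusted p = 0.000894, and 0.77 without the 2 arrays), and Acaca, the acetyl-CoA carboxylase that makes malonyl-CoA in the cytosol (0.75, adjusted p = 5.20e-05, and 0.89 without the 2 arrays). Acacb, the carboxylase at mitochondria, read 0.63 and was not called (adjusted p = 0.342), and without the 2 arrays it was 1.28 (adjusted p = 0.0206). Acsl4 was likewise called without the 2 arrays alone (0.50, adjusted p = 0.0522, against 0.75, adjusted p = 0.00198). In Null mice at 10 mg/kg 1 of the 9 was called higher, beside 4.15% of all genes.

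Mitochondrial β-oxidation, which takes the acyl-CoA that Cpt2 delivers, had all 14 of its listed genes measured. Of these, 13 were higher at WT 10 mg/kg (10 without the 2 arrays), beside 7.63% of all genes (13.8%), with a median of 0.60 (0.39). The largest changes were those of Eci1 (1.25), Decr1 (1.05), Eci2 (0.90), and Acadl (0.75), or 1.19, 1.13, 0.68, and 0.73 without the 2 arrays, the isomerases, the dienoyl-CoA reductase, and the long-chain dehydrogenase. In Null mice at 10 mg/kg 2 of the 14 were higher, Eci2 (0.65, adjusted p = 0.00368) and Acadl (0.67, adjusted p = 0.0036), beside 4.15% of all genes. Eci2 was counted in this list, whereas the paper places it (as PECI) among its peroxisome genes. The counts of the mitochondrial and peroxisomal lists therefore depend on where Eci2 is placed. At 0 mg/kg 5 of the 14 were lower in Null mice (8 without the 2 arrays), beside 0.65% of all genes (1.16%).

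Peroxisomal β-oxidation shortens the chains that Crot and Crat receive, and 8 of its 11 listed genes were measured. At WT 10 mg/kg 7 were higher, with and without the 2 arrays, beside 7.63% of all genes (13.8%), with a median of 0.80 (0.92). Ehhadh, the bifunctional enzyme, rose by 2.12 ± 0.178, Ech1 by 1.31 ± 0.088, Acot8 by 1.29 ± 0.109, and Acaa1a by 0.81 ± 0.103. The same genes rose by 2.48, 1.20, 1.14, and 0.86 without the 2 arrays. In Null mice limma called 0 of the 8 at 10 mg/kg, beside 1122 of all 12156 genes in either direction. At an unadjusted p under 0.05 stood 4 of the 8, beside 3229 of all genes. The methods' t-test called 1 of the 8, beside 936 of all genes. The difference in response between genotypes was called for 4 of the 8 at 10 mg/kg, with and without the 2 arrays, beside 2.95% of all genes (3.62%). Among them were Acot8 (-1.30, adjusted p = 3.18e-06, and -1.15 without the 2 arrays) and Ehhadh (-1.51, adjusted p = 0.00313, and -1.88). The lists and the 8 genes were chosen with earlier results of these data known, and their counts are descriptions.

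**Figure D4:**
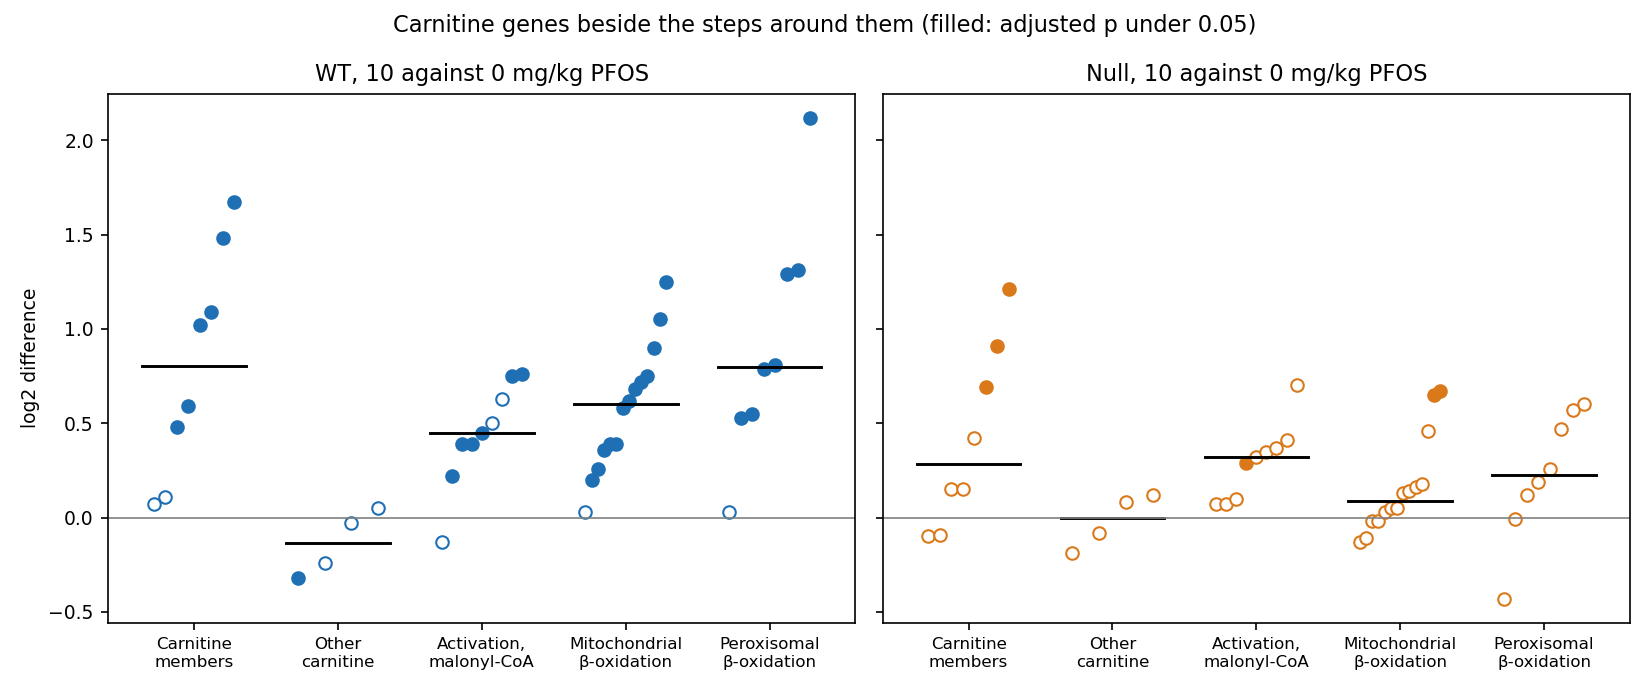
Log2 difference between 10 and 0 mg/kg PFOS (vertical axis) in WT mice (left) and Null mice (right) for the 8 carnitine genes and for the measured genes of 4 lists around them (horizontal axis), 1 point per gene, filled for an adjusted p under 0.05 (limma), with the median as a line. In WT mice the medians are 0.81 for the carnitine genes, 0.60 for mitochondrial and 0.80 for peroxisomal β-oxidation, and in Null mice 3 carnitine genes are filled.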

How the data were processed

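Liver RNA of 30 mice was hybridized to 1 Affymetrix mouse genome array each. RMA (RMA Express 1.0) was used by the authors for background adjustment, quantile normalization, and summary. The deposited table holds the log2 results for 45101 probe sets, of which 64 are controls and were left out here. Groups came from the labels. Probe sets were named through the annotation table of the array (34958 with 1 gene, 932 with several), with 34754 symbols updated through the Entrez number, and 24069 passed the filter on low values. Differences were tested with limma 3.58.1 (lmFit, eBayes) in R 4.3.3, doses within the 15 arrays of a genotype and genotypes over all 30, and the steps were tested on simulated data. The members, lists, markers, and tests were chosen with earlier results of these data known. The methods' t-test is the pairwise test of the study, with Benjamini-Hochberg adjustment here; between genotypes, which the study did not test this way, the name stands for the same contrast with each probe set's own spread. The order of groups and the genes of like pattern were also taken without 2 arrays, a choice made after seeing the data. The alternatives were no filter and a stricter one, another choice of probe set, arrays set to 1 median, limma with a trend and robust spread, with array weights, or with replicate numbers as blocks, more or fewer arrays in a fit, that t-test, an unadjusted limit of 0.0025, and left-out arrays. The rule for named genes took every member, the called genes of the list of other carnitine genes, and at most 4 genes of each other list, those with the largest change at WT 10 mg/kg. No protein sequence was used. The number of arrays limits the precision. Python 3.11.15 and matplotlib 3.10.9 drew the figures.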

Additional observations from a re-analysis of the deposited data

Results flagged for a closer look

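In 4 of the 48 groups of 5 arrays (8 genes in 6 groups), 1 array lay far from its neighbors by Dixon's test, which chance alone gives in about 1 group in 20. Slc22a5 read 9.79 in replicate 2 of WT 3 mg/kg, above the other 4 arrays (9.49 to 9.56). Aldh9a1 read 12.33 in replicate 1 of WT 10 mg/kg, above 12.19 to 12.23 in the others. Cpt2 read 11.78 in replicate 4 of WT 10 mg/kg, below 11.95 to 11.99 in the others. Crot read 11.84 in replicate 2 of WT 3 mg/kg, below 12.37 to 12.55 in the others. Replicate 2 of WT 3 mg/kg is thus the high array for Slc22a5 and the low one for Crot. The response of Aldh9a1 to 10 mg/kg differed between genotypes by a test of the difference itself, with Null minus WT at -0.43 (adjusted p = 0.00271, limma).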

How the results depend on the processing

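With all arrays 30 differences of single genes were called over the 11 comparisons. Of these, 19 kept their call under every alternative in which the gene was tested, and 24 with any 1 array left out. Aldh9a1 went untested without probe sets that can bind several transcripts, and its calls were not counted as lost there. The counts of called carnitine genes moved as follows, and the cause was not tested except where the alternative tests fewer probe sets or arrays. At WT 3 mg/kg, 2 genes became 1 with the probe set of highest mean, 1 without probe sets that can bind several transcripts, 1 with the replicate block, 1 by the methods' t-test, 4 at the unadjusted limit, and 5 without the 2 arrays. From WT 3 to 10 mg/kg, 2 became 1 with the probe set of highest mean, 1 without probe sets that can bind several transcripts, 1 with the replicate block, 5 with array weights, and 5 without the 2 arrays. For the difference in response at 3 mg/kg, 0 became 1 with array weights, by the test with each gene's own spread, and at the unadjusted limit. At 10 mg/kg, 1 became 0 without probe sets that can bind several transcripts, since Aldh9a1 has no other kind, 2 with array weights (Cpt2 in addition), and 2 without the 2 arrays (Crat in addition). The Crat difference in response at 10 mg/kg turned from -0.76 to 0.11 with the probe set of highest mean.

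With 1 array left out in turn, counts ran from 0 to 3 at WT 3 mg/kg (0 without WT 0 mg/kg replicate 4 or WT 3 mg/kg replicate 3, 3 without WT 0 mg/kg replicate 1 or 2), 5 to 6 at WT 10 mg/kg, 1 to 3 from WT 3 to 10 mg/kg, 1 to 3 at Null 3 mg/kg (1 without Null 0 mg/kg replicate 3 or 5 or Null 3 mg/kg replicate 2 or 5), 3 to 4 at Null 10 mg/kg, and 0 to 0 from Null 3 to 10 mg/kg. They ran from 0 to 1 and from 1 to 2 for the difference in response at 3 and 10 mg/kg (at 3 mg/kg, 1 without WT 3 mg/kg replicate 2 or Null 3 mg/kg replicate 3, with Aldh9a1, and at 10 mg/kg, 2 without WT 0 mg/kg replicate 2 or Null 10 mg/kg replicate 1 or 2, each with Cpt2 in addition), and were 3, 4, and 6 in every run for Null against WT at 0, 3, and 10 mg/kg. Deviations of same-numbered arrays from their group means correlated between -0.239 and 0.357. Arrays of different numbers were not compared, so whether the replicate numbers pair the arrays was not tested. The replicate block moved no other count by over 1.5 times. It ended the calls of Aldh9a1 at WT 3 mg/kg and from WT 3 to 10 mg/kg (adjusted p = 0.0592 and 0.0507), Crot at WT 10 mg/kg (0.0659), and Crat at Null 3 mg/kg (0.0521). Cpt2 at Null against WT, 0 mg/kg, lost its call (adjusted p = 0.0594) with the 2 control groups alone in the fit. Counts over all genes moved by over 1.5 times with array weights (from 1636 to 2955 at WT 10 mg/kg, 800 to 2352 from WT 3 to 10, 638 to 1878 at Null 3, and, for the difference in response, 145 to 778 at 3 and 442 to 1107 at 10; for Null against WT, 191 to 512, 1284 to 2879, and 1708 to 2793). Without the 2 arrays they went from 30 to 112 at WT 3 mg/kg and became 3435 at WT 10, 1639 from 3 to 10, and 24 for the difference in response at 3 mg/kg. With no filter they fell to 529 from WT 3 to 10 mg/kg, 417 at Null 3, 51 and 273 for the difference in response, and 117 for Null against WT at 0 mg/kg. The methods' t-test gave 18 at WT 3 and 360 from WT 3 to 10 mg/kg, and the replicate block 506 in the latter. The unadjusted limit gave 98 at WT 3, 50 (from 0) from Null 3 to 10, 415 for the difference in response at 3, and 400 for Null against WT at 0 mg/kg. Fits of the compared groups alone gave 68 and 907 for Null against WT at 0 and 10 mg/kg, and equal array medians 73 for the difference in response at 3 mg/kg.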
